A study of Mus musculus with 4 samples.

Results

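The genes described here are the numbered cadherins of the mouse together with the cytoplasmic and membrane partners that build adherens junctions with them. They were chosen by name alone: every gene whose symbol is Cdh followed by a number, and 13 named genes, namely the catenins Ctnna1, Ctnna2, Ctnna3, Ctnnb1, Ctnnd1 and Ctnnd2, the related Jup and Pkp4, the scaffold Afdn, the nectins Nectin1, Nectin2 and Nectin3, and Pecam1. The rule found 23 cadherins and so 36 genes of the 46072 in the table, where Afdn and the nectins stand under their older names Mllt4 and Pvrl1 to Pvrl3. The name "classical cadherins" covers only part of them, since 5 are type I and 13 are type II classical cadherins, while Cdh13, Cdh16, Cdh17, Cdh23 and Cdh26 belong to neither class.

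Expression was measured by RNA-seq of polyadenylated RNA in 4 libraries from mouse brain vessels. All came from wild-type (WT), untreated tissue, and the labels call the material endothelial cells dissected by laser capture microdissection (LCM), which lifts selected cells from a tissue section with a laser. The series title adds that the brain was fixed by perfusion and that the cells were picked by immunolabelling. All 4 libraries form 1 group, called replicates 1 to 4 here, so genes are set against a fixed level or against each other within a library. Age, sex, strain and the number of cells or animals behind a library were not given in the sources used here. The p-values therefore cover the spread between these 4 libraries alone, and that spread may be technical.

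Classical cadherins are calcium-dependent adhesion proteins that bind a like cadherin on the neighbouring cell. Inside the cell, p120 catenin holds the cadherin at the membrane, and beta-catenin or plakoglobin ties its tail to alpha-catenin and so to actin. Nectins form a parallel adhesion system that reaches actin through afadin. In endothelium the main cadherin is VE-cadherin (Cdh5), while N-cadherin (Cdh2) is also present and faces pericytes. PECAM-1 (Pecam1), an immunoglobulin-family adhesion protein, joins VE-cadherin at cell borders. Neurons and glia use the same catenins with other cadherins.

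Values are FPKM as the authors deposited them, fragments per kilobase of transcript scaled to the mapped total, and they summed to between 448678 and 482882 in each library. The depth in reads is unknown, values carry no counting interval, and a gene without signal is described as listed at 0. The label was checked against marker lists. For scale, 47.7% of the 25206 genes tested lay above 1 FPKM and 40.1% below (limma, adjusted p under 0.05). Of 10 endothelial markers 9 lay above 1 FPKM and Erg lay below it, with a median of 4.56 ± 0.239 FPKM (SD, n = 4) and a summed level of 91.1 to 109 FPKM. Of 8 astrocyte, 8 neuron, 8 oligodendrocyte, 8 microglia and 8 choroid plexus markers all lay above 1 FPKM. Their summed levels were 921 to 1104.5, 2047 to 2568, 4885 to 6162, 198 to 284 and 12258 to 17949 FPKM. Most of the choroid plexus sum was Ttr, at 14493 ± 2381 FPKM. Mbp (3187 ± 376) and Snap25 (1433 ± 185) likewise made up most of the oligodendrocyte and neuron sums (SD, n = 4). The medians of these lists, in the same order, were 100.4 ± 7.39, 100.8 ± 5.32, 142 ± 18.2, 16.7 ± 1.36 and 71.2 ± 7.46 FPKM. Of 8 mural and 8 fibroblast and meningeal markers 6 each lay above, with sums of 102 to 120.3 and 82.5 to 110.0 FPKM. Of 6 erythrocyte markers 5 lay above, with sums of 1202 to 2017 FPKM, and Slc4a1 was listed at 0 in 1 library, the one case among the 72 markers. These libraries therefore held RNA of several brain cell types beside the labelled one, and the part of each in the levels below was not tested. In such bulk RNA, fewer cells of a type and less RNA per cell cannot be told apart.

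**Figure D1:**
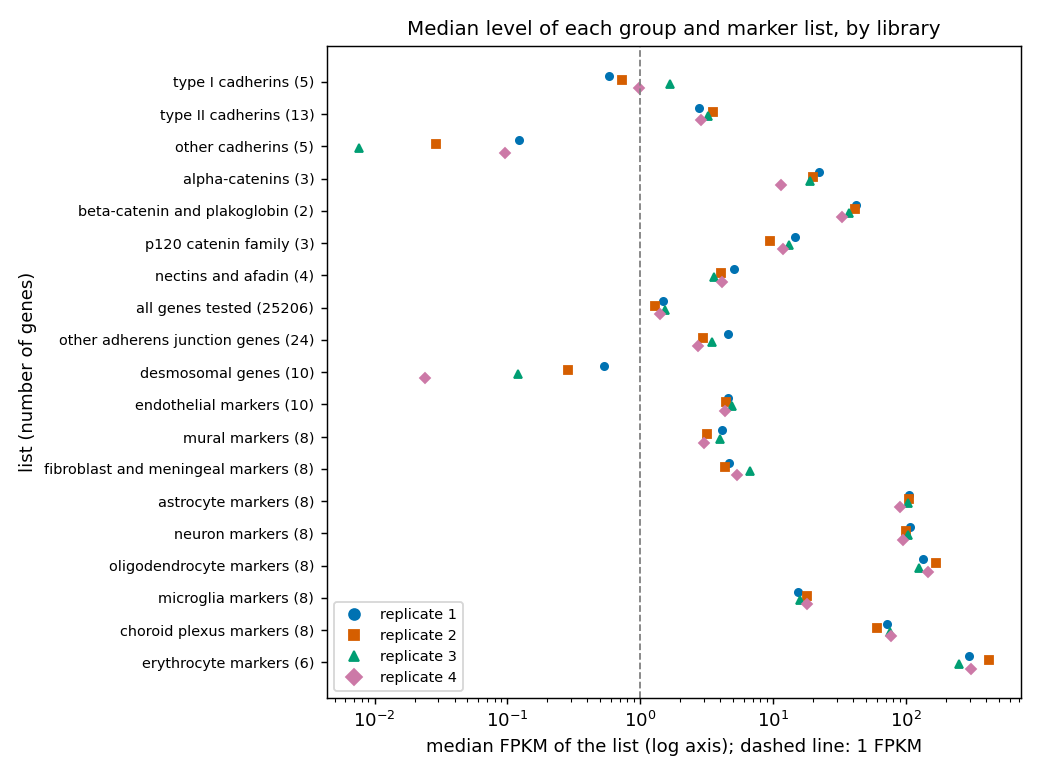
Median FPKM (log axis) of each group of junction genes, of all genes tested and of each marker list, with 1 symbol per library and the number of genes in brackets. The endothelial marker medians lie near 4.56 FPKM, while the medians of neuron, astrocyte and oligodendrocyte markers lie at 89.4 FPKM or more in all 4 libraries.

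Because the levels of relatives are compared below, coding sequences were checked for stretches that a read could match in more than 1 member. Among 630 pairs of members, using the longest annotated coding sequence of each, the longest identical run was 37 bases, between Ctnna1 and Ctnna3, and the median was 12 bases. Runs of 30 bases or more occurred in 2 pairs, those of Ctnna1 with Ctnna3 and with Ctnna2, and no pair shared 50 bases. The 3 pairs, from the cadherins and the beta-catenin and p120 families, are shown so that the closeness of relatives can be seen. Each is the longest run in its family that lies with 20 bases on each side inside 1 exon of both genes, Cdh2 and Ctnna1 not being considered. Capitals mark the identical run, and the sequences are written in the sense of the gene from GENCODE M21 (GRCm38).
Cdh20 (chr1:104945195-104945258, plus strand, exon 5 of 12): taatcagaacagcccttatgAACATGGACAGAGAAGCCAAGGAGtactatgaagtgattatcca
Cdh8 (chr8:99200334-99200397, minus strand, exon 5 of 12): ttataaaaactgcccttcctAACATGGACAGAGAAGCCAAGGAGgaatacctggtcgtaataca
Ctnnb1 (chr9:120952902-120952961, plus strand, exon 7 of 15): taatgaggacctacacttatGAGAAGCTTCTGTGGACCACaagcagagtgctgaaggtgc
Jup (chr11:100380586-100380645, minus strand, exon 6 of 14): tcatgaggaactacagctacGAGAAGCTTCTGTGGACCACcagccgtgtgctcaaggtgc
Ctnnd1 (chr2:84615148-84615204, minus strand, exon 8 of 21): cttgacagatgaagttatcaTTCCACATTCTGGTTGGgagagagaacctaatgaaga
Pkp4 (chr2:59334815-59334871, plus strand, exon 12 of 22): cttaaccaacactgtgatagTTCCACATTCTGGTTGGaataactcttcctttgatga

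The cadherin pair shares 24 bases and is identical at 47 of 64 positions of the window. Ctnnb1 and Jup share 20 bases and 51 of 60 positions, and Ctnnd1 and Pkp4 share 17 bases and 35 of 57 positions. Matches with genes outside the set were of more weight for 2 members. Of the 50-base words of the longest Ctnnd1 transcript, 69.5% also occur in Gm28635, a same-strand gene model (chr2:84601439-84678041) that covers 61.2% of the Ctnnd1 exons and measured 0.00743 ± 0.0112 FPKM (SD, n = 4). The Ctnnd1 level is uncertain for that reason. Of the Ctnnb1 words, 18.6% lie in Ulk4 on the opposite strand, which measured 0.914 ± 0.197 FPKM. For each of the other 34 members the shared words came to under 4%.

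Most of the set was measured above 1 FPKM. On the log2(FPKM + 1) scale, 24 of the 34 members tested were above 1 FPKM, 5 were below and 5 were in neither class (limma, adjusted over the 25206 genes tested), while Cdh16 and Cdh17 were listed at 0 throughout and not tested. Among all genes tested 47.7% lay above and 40.1% below. With each library rescaled to the same sum of 1000000, 1 member stayed below, Cdh23, and the other 4 no longer passed. The median of the 36 members, Cdh16 and Cdh17 included, was 3.50 ± 0.342 FPKM (SD, n = 4). That of all genes tested, which leaves out genes listed at 0 throughout, was 1.43 ± 0.107 FPKM. Levels spanned from beta-catenin at 70.1 FPKM to genes at 0, and in the order of means only 3 of the 35 steps separated neighbours without overlap between libraries, those below Ctnnb1, below Cdh1 and below Cdh23.

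**Figure D2:**
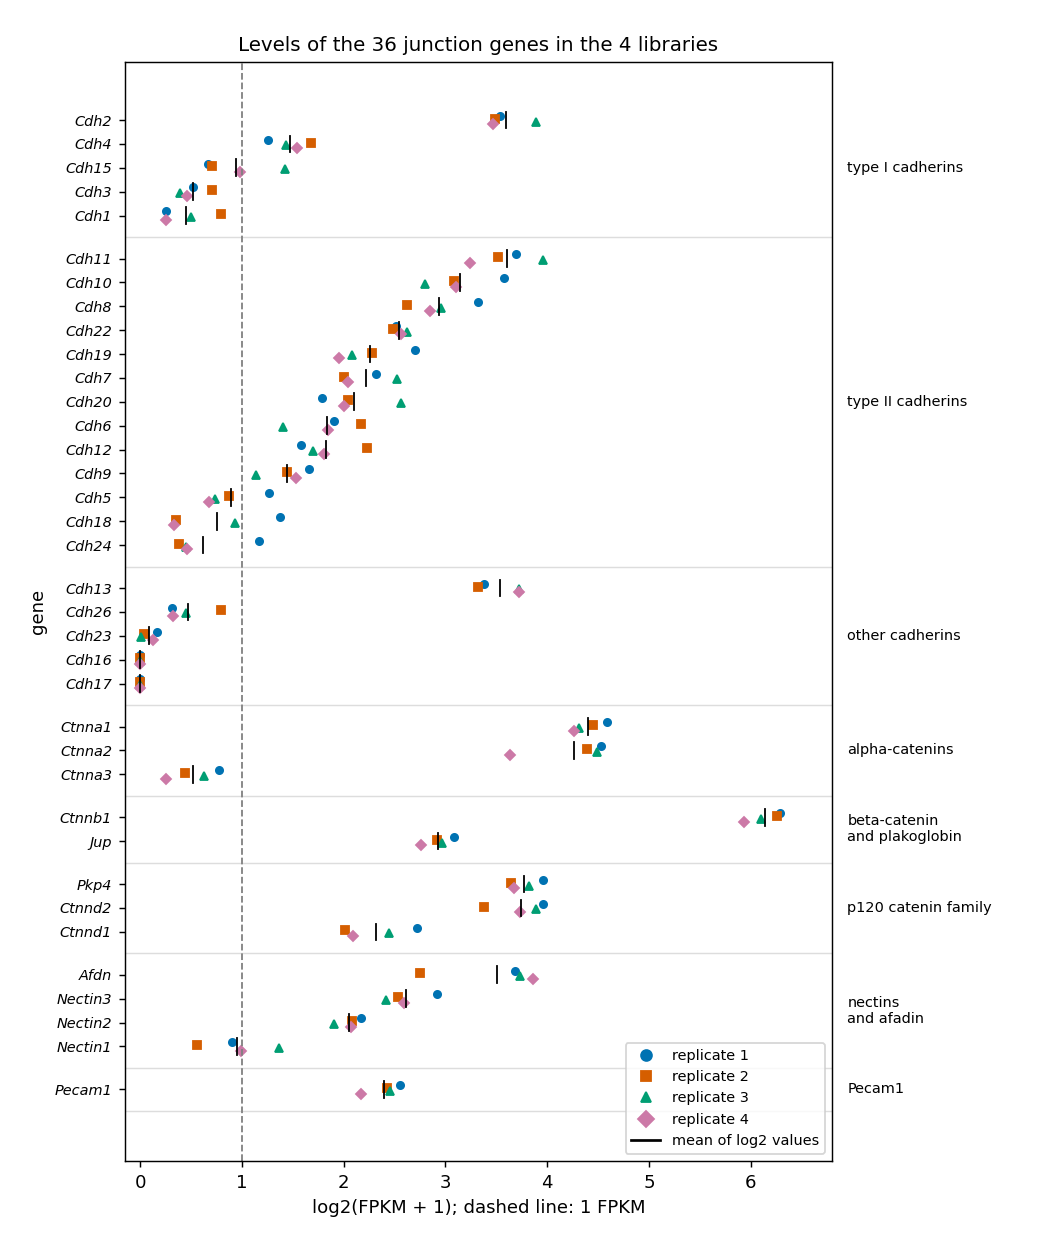
Levels of the 36 genes as log2(FPKM + 1), grouped by role, with 1 symbol per library, a bar at the mean and a dashed line at 1 FPKM. Ctnnb1 stands apart at the right in all 4 libraries, the alpha-catenins Ctnna1 and Ctnna2 follow, and Cdh5 lies beside the dashed line.

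Among the type I cadherins, only N-cadherin was measured at a high level. Cdh2 (chromosome 18, 16588877 to 16809246, GRCm38) measured 10.6, 10.2, 13.8 and 10.1 FPKM in replicates 1 to 4, 2.60 ± 0.09 (SE) above 1 FPKM on the log2 scale (limma, adjusted p = 3.30e-06). Replicates 1, 2 and 4 lay close together, and replicate 3 stood above them. R-cadherin (Cdh4), first described in retina, measured 1.39, 2.204, 1.70 and 1.92 FPKM, above 1 FPKM (limma, adjusted p = 0.0152) but not without replicate 2 (adjusted p = 0.0523) or without replicate 4 (adjusted p = 0.0621). M-cadherin (Cdh15), known from muscle, measured 0.967 ± 0.503 FPKM and passed in neither direction. The epithelial cadherins lay below 1 FPKM: P-cadherin (Cdh3) at 0.437 ± 0.137 and E-cadherin (Cdh1) at 0.385 ± 0.254 FPKM (SD, n = 4, limma, adjusted p = 0.00168 and 0.00509).

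Type II cadherins made up most of the cadherin signal, with 10 of 13 above 1 FPKM, none below and 3 in neither class, and VE-cadherin was among those 3. Among all genes tested, 47.7% lay above 1 FPKM and 40.1% below. Cdh11, known from mesenchymal cells and also active in brain, measured 11.9, 10.5, 14.6 and 8.47 FPKM. Cdh10 measured 10.9, 7.49, 5.95 and 7.58 FPKM, and Cdh8 8.97, 5.15, 6.76 and 6.19 FPKM, both being cadherins of brain neurons. All 3 stood above 5 FPKM in every library. Cdh11 was highest in replicate 3, and Cdh10 and Cdh8 were highest in replicate 1.

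Several brain type II cadherins followed at a few FPKM. Cdh22 measured 4.71, 4.62, 5.16 and 4.93 FPKM, the tightest set of values among members with a mean of at least 1 FPKM (coefficient of variation 5.01%). Cdh19, known from glia of the neural crest lineage, measured 5.53, 3.86, 3.23 and 2.87 FPKM. Its values overlapped those of Cdh7, at 4.001, 3.02, 4.77 and 3.12 FPKM. Cdh20 measured 2.45, 3.12, 4.89 and 3.01 FPKM, with replicate 3 the highest. Cdh6, also known from kidney, measured 2.75, 3.51, 1.65 and 2.59 FPKM, and Cdh12 measured 1.98, 3.71, 2.26 and 2.51 FPKM. Both were highest in replicate 2. Cdh9 measured 2.16, 1.72, 1.20 and 1.88 FPKM and lay above 1 FPKM (limma, adjusted p = 0.0261), a call lost without replicate 1, 2 or 4 (adjusted p = 0.091, 0.0691 and 0.0924). The lowest type II members were Cdh18 at 0.763 ± 0.631 FPKM and Cdh24 at 0.572 ± 0.449 FPKM (SD, n = 4). Both were highest in replicate 1, at 1.59 and 1.24 FPKM, and without that library both lay below 1 FPKM (limma, adjusted p = 0.0472 and 0.00110).

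VE-cadherin was low in these libraries. Cdh5 (ENSMUSG00000031871, chromosome 8, 104101625 to 104144511, GRCm38) measured 1.41, 0.835, 0.668 and 0.602 FPKM in replicates 1 to 4. Replicate 1 was the one library above 1 FPKM. Among the 23 cadherins it ranked 14th, 14th, 16th and 15th in replicates 1 to 4. It held 1.13% ± 0.412 of the summed cadherin FPKM (SD, n = 4), while Cdh11, Cdh2 and Cdh13 held 14.6% ± 2.28, 14.5% ± 1.60 and 14.0% ± 2.63.

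The cadherins outside the classical families ranged from high to unmeasured. T-cadherin (Cdh13), which has a lipid anchor in place of a catenin-binding tail and is found on vessels and neurons, measured 9.43, 8.97, 12.2 and 12.2 FPKM. Replicates 3 and 4 were higher than replicates 1 and 2. Cdh26 measured 0.399 ± 0.232 FPKM, and Cdh23, a cadherin of hair cell tip links, 0.0636 ± 0.0541 FPKM (SD, n = 4), both below 1 FPKM (limma, adjusted p = 0.00408 and 4.75e-06). Kidney cadherin (Cdh16) and intestinal cadherin (Cdh17) were listed at 0 in all 4 libraries.

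Set against Cdh5 across the 4 libraries, 11 of the 22 other cadherins had their lowest library above the highest of Cdh5. Cdh16, Cdh17 and Cdh23 lay wholly below it. Of all genes tested, 45.3% lay wholly above and 32.7% wholly below Cdh5. Those shares leave out genes listed at 0 throughout, as Cdh16 and Cdh17 were. Across all 36 members, 24 exceeded Cdh5 and 3 lay below it by limma's moderated test, against 49.1% and 37.1% of all genes. All these differences share the noise of 1 reference gene. The moderated test took each gene's spread from its level alone, so its p-values are too small and are not given. With each gene's own variance, an alternative chosen after seeing the data, 23 members exceeded Cdh5 and 2 lay below it, against 46.1% and 29.1% of all genes. Those below were Cdh1, Cdh23 and Cdh26 in the moderated test, and Cdh23 and Ctnna3 with own variance. In the moderated test without replicate 4, Cdh23 alone passed. Without replicate 1, Cdh1 and Cdh26 no longer passed in that test, while Cdh24 and Ctnna3 did. Cdh26 was also lost without replicate 3. Cdh2 exceeded Cdh5 by 2.71 ± 0.18 (SE) on the log2(FPKM + 1) scale, Cdh11 by 2.71 ± 0.18 and Cdh13 by 2.65 ± 0.22 (limma with own variance, adjusted p = 0.00254, 0.0023 and 0.00404). Cdh4 was above Cdh5 in the moderated test alone (own variance, adjusted p = 0.0783). Cdh9 was above Cdh5 in both fits and within each library, by 0.39 to 0.85 on the log2(FPKM + 1) scale. In the moderated test both Cdh4 and Cdh9 lost that call without replicate 2 and without replicate 4. In FPKM, Cdh2 was 14.3 ± 5.67 times Cdh5 (SD, n = 4), from 7.54 times in replicate 1 to 20.7 times in replicate 3. Of the 10 endothelial markers 9 exceeded Cdh5 in both fits, the highest being Egfl7 at 40.3 ± 4.67 FPKM, and the transcription factor gene Erg, the lowest at 0.368 ± 0.123 FPKM (SD, n = 4), lay below it in both.

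**Figure D3:**
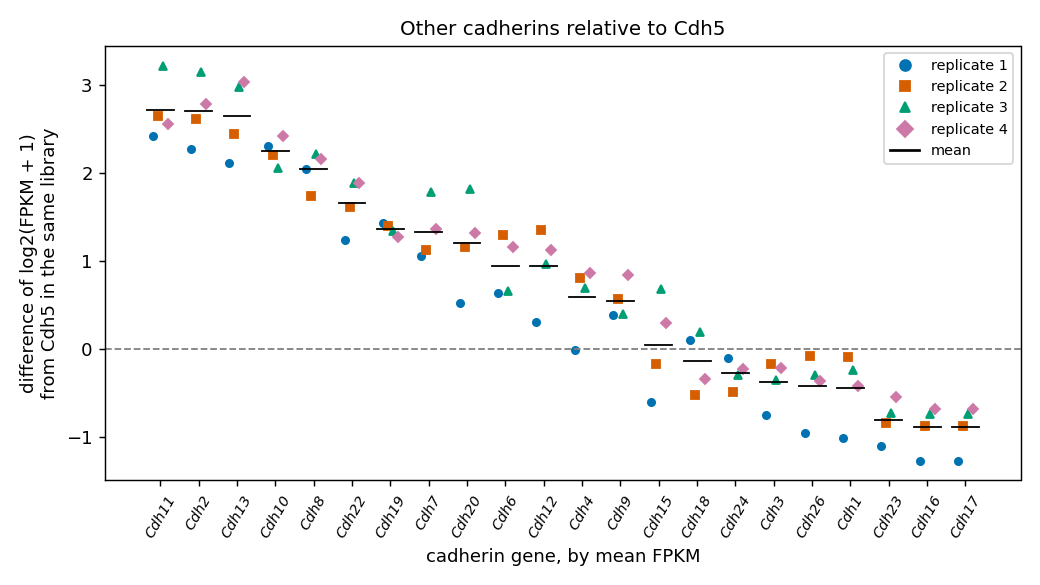
Difference of log2(FPKM + 1) between each of the other 22 cadherins and Cdh5 in the same library, ordered by mean FPKM, with 1 symbol per library and a bar at the mean. The first 11 genes, led by Cdh11, Cdh2 and Cdh13, and Cdh9 lie above 0 in all 4 libraries. Cdh4, Cdh15 and Cdh18 fall on both sides, Cdh4 being just below 0 in replicate 1.

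Beta-catenin, which works both at the cadherin tail and as the transcriptional partner of Wnt signalling, was the highest of the 36 members. Ctnnb1 (chromosome 9, 120929216 to 120960507) measured 76.9, 75.7, 67.7 and 60.1 FPKM. Its close relative plakoglobin (Jup), which can replace it at junctions and also serves desmosomes, measured 7.47, 6.54, 6.82 and 5.77 FPKM. Both genes were highest in replicate 1 and lowest in replicate 4, and they did not overlap. Ctnnb1 was 10.6 ± 0.717 times Jup (SD, n = 4) and 3.21 ± 0.09 (SD) higher on the log2(FPKM + 1) scale, with the same direction in 4 of 4 libraries. It took 91.3% ± 0.516 of their summed FPKM, from 90.8% to 92.1%. For the 12 pairs compared within libraries, the exact 2-sided sign-flip permutation test over 4 libraries cannot pass the threshold, since its smallest p is 2 of 16 sign patterns. In all, 11 pairs had that p (0.136 adjusted over the 12 pairs).

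Alpha-catenin was present as its broad and its neural form at like levels. Ctnna1, the form of most tissues, measured 23.0, 20.9, 18.9 and 18.2 FPKM. Ctnna2, the neural form, measured 22.1, 20.04, 21.4 and 11.5 FPKM, with replicate 4 far below the rest. The difference Ctnna2 minus Ctnna1 was -0.14 ± 0.34 on the log2 scale (SD, n = 4, exact sign-flip permutation p = 0.625), and it turned to 0.02 without replicate 4. Their shares of summed alpha-catenin FPKM were 52.0% ± 6.29 and 46.9% ± 5.98. Ctnna3, the form of heart muscle, measured 0.709, 0.357, 0.542 and 0.189 FPKM and lay below 1 FPKM (limma, adjusted p = 0.0068). Its pair difference from Ctnna1 was -3.88 ± 0.16 (SD, n = 4). Of the neuron markers, the median was 107, 99.0, 103 and 94.4 FPKM and the sum 2178, 2568, 2047 and 2196 FPKM in replicates 1 to 4, so replicate 4 was lowest by the median and not by the sum. Their part in the result was not tested.

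Each of the 3 alpha-catenin genes holds a gene of the Lrrtm family, which encodes synaptic adhesion proteins, within its span on the opposite strand. Lrrtm2 inside Ctnna1 measured 5.49 ± 0.803 FPKM, 0.270 ± 0.0252 times its host. Lrrtm1 inside Ctnna2 measured 12.7 ± 1.44 FPKM, 0.732 ± 0.278 times its host, and 12.9 FPKM in replicate 4, where its host was lowest. Lrrtm3 inside Ctnna3 measured 13.2 ± 2.77 FPKM and was from 13.1 to 79.5 times its host (SD, n = 4 for each). The ratio to the host stayed between 0.243 and 0.303 for Lrrtm2 and ranged from 0.480 to 1.13 for Lrrtm1. Exons of Lrrtm2 and Ctnna1 overlap by 95 bases, and those of the other pairs do not overlap in the annotation.

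Of the p120 family, both relatives in the set exceeded p120 catenin itself. Ctnnd1, p120 catenin, which limits cadherin uptake from the membrane, measured 5.60, 3.04, 4.44 and 3.27 FPKM, subject to the overlap with Gm28635 given above. Ctnnd2, the neural delta-catenin, measured 14.5, 9.41, 13.8 and 12.3 FPKM. Pkp4, also called p0071, measured 14.5, 11.6, 13.1 and 11.8 FPKM. Neither relative overlapped Ctnnd1, and both were lowest in replicate 2. Ctnnd2 exceeded Ctnnd1 by 1.42 ± 0.17 and Pkp4 by 1.46 ± 0.19 on the log2(FPKM + 1) scale (SD, n = 4), in each of the 4 libraries. The FPKM summed over these members fell to Pkp4 for 43.7% ± 2.98, to Ctnnd2 for 42.5% ± 2.54 and to Ctnnd1 for 13.7% ± 1.85. Arvcf, a further p120 relative outside the set, is not in that sum. It measured 4.85, 3.65, 5.34 and 3.66 FPKM, values that overlapped those of Ctnnd1, and was named after its value was seen.

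**Figure D4:**
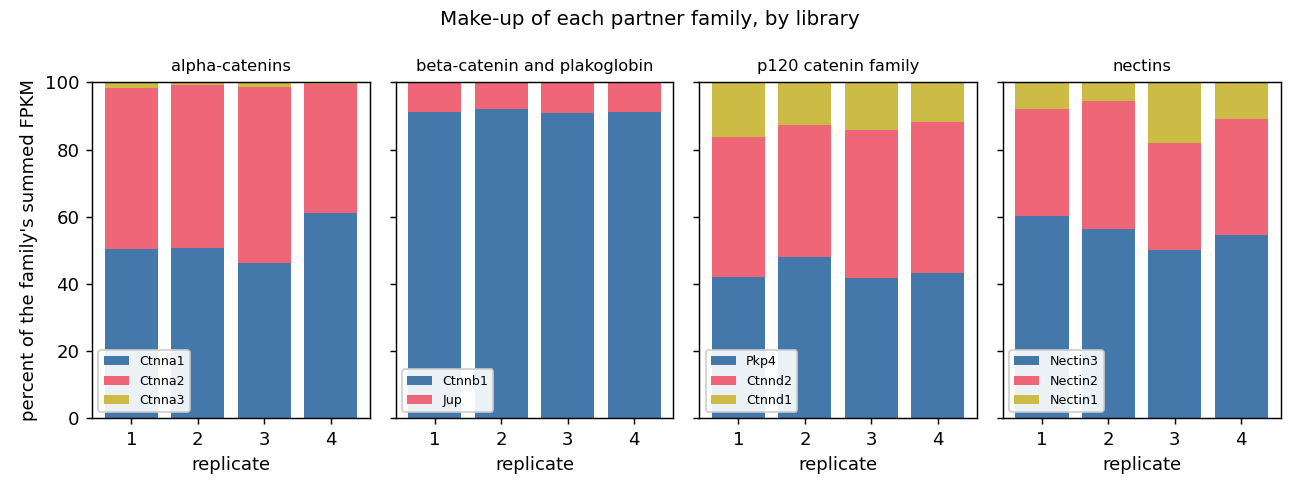
Share of summed FPKM within each family, counting only its members in the set, as stacked bars from 0 to 100 percent for replicates 1 to 4. Ctnnb1 takes between 90.8 and 92.1 percent of its pair in each library, whereas the Ctnna2 share is 38.4 percent in replicate 4 and at least 48.2 percent in the others.

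Afadin had the largest coefficient of variation (32.1%) among members whose mean reached 1 FPKM. Afdn, the actin-binding partner of nectins, measured 11.9, 5.74, 12.3 and 13.5 FPKM, with replicate 2 at less than 50% of every other library. Nectin3 measured 6.56, 4.81, 4.35 and 5.03 FPKM, and Nectin2 3.49, 3.24, 2.75 and 3.20 FPKM. The 2 genes did not overlap. Nectin3 exceeded Nectin2 by 0.56 ± 0.13 on the log2 scale (SD, n = 4), in 4 of 4 libraries. Nectin1, a nectin of synapses and a herpesvirus receptor, measured 0.871, 0.470, 1.58 and 0.993 FPKM and passed in neither direction against 1 FPKM (limma, adjusted p = 0.794). Its difference from Nectin2 was -1.10 ± 0.42 on the log2 scale (SD, n = 4), lower in 4 of 4 libraries.

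Pecam1 (chromosome 11, 106654217 to 106750628, GRCm38) measured 4.86, 4.38, 4.49 and 3.51 FPKM, and so lay above Cdh5 in each library. It was 5.31 ± 1.38 times Cdh5 (SD, n = 4) and 1.51 ± 0.18 (SD) higher on the log2(FPKM + 1) scale. Taken as the reference in place of Cdh5, Pecam1 was exceeded by 12 members, and 14 lay below it by the moderated test, against 31.4% and 60.4% of all genes. With each gene's own variance the counts were 12 and 13, against 29.5% and 57.9% of all genes. The 12 above were Ctnnb1, Ctnna1, Ctnna2, Pkp4, Ctnnd2, Cdh11, Cdh2, Afdn, Cdh13, Cdh10, Cdh8 and Jup, and all 12 had their lowest library above the highest of Pecam1, while 15 members lay wholly below it. Of all genes tested, 29.9% lay wholly above and 57.8% wholly below Pecam1. Those shares leave out genes listed at 0 throughout, while the 15 members include Cdh16 and Cdh17. For the 12 members above, adjusted p-values with own variance ranged from 0.000455 to 0.0356 (limma). Cdh22, Nectin3, Ctnnd1, Cdh19, Cdh7 and Cdh20 passed in neither direction in either fit. Cdh6 and Cdh12 lay below Pecam1 only in the moderated fit (own variance, adjusted p = 0.0589 and 0.0558), and Nectin2 only with own variance (adjusted p = 0.0383).

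Summed by layer of the complex, beta-catenin with plakoglobin exceeded the classical cadherins. The alpha-catenins and the p120 family members of the set lay below the classical cadherins. The type I and type II cadherins summed to 14.8 ± 2.16 and 51.1 ± 6.57 FPKM. Beta-catenin with plakoglobin summed to 76.8 ± 8.40 FPKM, the alpha-catenins to 39.5 ± 6.79 and the p120 family members, without Arvcf, to 29.4 ± 4.68 FPKM (SD, n = 4). Per unit of summed classical cadherin, these came to ratios of 1.17 ± 0.107, 0.596 ± 0.0631 and 0.444 ± 0.0424. The first ratio stayed between 1.06 and 1.32 in the 4 libraries. FPKM counts RNA per length and says nothing of protein.

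Replicate 1 held the highest value of most members. Of the 24 members whose mean reached 1 FPKM, 14 (58.3%) had their top value in replicate 1, against 25.6% of the 13654 genes with such a mean, and the sum of all members was 275 FPKM in replicate 1 and 220 in replicate 4. The library sums of FPKM ran the other way, at 448678 for replicate 1 and 482882 for replicate 4, and their part in the result was not tested. The median coefficient of variation of these 24 members was 20.6%, from 5.01% for Cdh22 to 32.1% for Afdn, and that of all genes with such a mean 16.9%. Across genes, the level fell with transcript length in every library, by -0.25 to -0.36 on the log2 scale per doubling of the longest annotated transcript. An adjustment for that slope, chosen after seeing the data, was applied also to genes under 1 FPKM, where the slope was not fitted. With the adjustment, 24 members were above 1 FPKM and 5 below, as without it.

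Cadherin genes that lie together on chromosomes 2, 8 and 15 differed widely in level, and those on chromosome 1 did not. Chromosome 8 carries 8 of the 23 between 99024471 and 122867397 (GRCm38), in the order Cdh8, Cdh11, Cdh5, Cdh16, Cdh3, Cdh1, Cdh13 and Cdh15, with means of 6.77, 11.4, 0.878, 0, 0.437, 0.385, 10.7 and 0.967 FPKM. Neighbours there ranged from a gene listed at 0 to the highest cadherin. Chromosome 15 carries Cdh6, Cdh9, Cdh10, Cdh12 and Cdh18 between 13028701 and 23474418, with means from 0.763 to 7.99 FPKM. Chromosome 2 carries Cdh22, Cdh26 and Cdh4 within 14.8 megabases, with means from 0.399 to 4.86 FPKM. On chromosome 1, Cdh20, Cdh7 and Cdh19 lie within 6.21 megabases and had means from 3.37 to 3.87 FPKM.

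Of 24 other adherens junction genes, 20 lay above 1 FPKM and 2 below it (limma), with a median of 3.41 ± 0.815 FPKM (SD, n = 4). For these and the desmosomal genes below, the shares among all genes tested were 47.7% above and 40.1% below. The highest were Pdcd10 at 69.9 ± 9.21 FPKM, a gene of the cerebral cavernous malformation complex that steadies endothelial junctions, and Rap1b and Rap1a, small GTPases that strengthen cadherin adhesion, at 57.7 ± 7.23 and 46.8 ± 3.64 FPKM. Ccm2, of the same complex as Pdcd10, measured 29.9 ± 3.998 FPKM. Ptprb, the phosphatase VE-PTP that binds VE-cadherin, was named after its value was seen and measured 1.44, 1.15, 1.01 and 1.10 FPKM, passing in neither direction (adjusted p = 0.337). Its values overlapped those of Cdh5. The lowest were Pkp2 at 0.676 ± 0.318 FPKM, Pkp3 at 0.352 ± 0.311 and Pkp1 at 0.0479 ± 0.0957, which are plakophilins of desmosomes. Of 10 desmosomal genes, which include these 3, none lay above 1 FPKM, 5 lay below it, 3 passed in neither direction, and Dsg1a and Dsc1 were listed at 0 in all 4 libraries. The desmosomal cadherin Dsg2 was the highest of them at 0.730 ± 0.415 FPKM.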

How the data were processed

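The authors deposited 1 table of FPKM values for 46072 genes in 4 libraries. Per the submitters' processing notes, the build was GRCm38 and the tools were StringTie 2.2.1, HISAT2 2.2.1, SAMtools and bcl2fastq 2.20. The labels' protocols give mRNA enrichment and random priming. The annotation, the strand setting and how multiply matching reads were treated were not given in the sources used here. Since FPKM is scaled by length and mapped total, strong signal in few genes lowers the rest, and depth is unknown. Libraries were matched to columns by library name, and 0 columns were left out.

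A pseudocount of 1 was added before taking log2, which understates fold differences of low genes. limma 3.58.1 in R 4.3.3 tested each of 25206 genes above 0 in any library in 2-sided moderated tests with a mean-variance trend, against 1 FPKM and against Cdh5 or Pecam1 in the same library, with Benjamini-Hochberg adjustment over all genes and a threshold of 0.05. With a reference gene the estimated prior degrees of freedom were infinite, so those p-values are too small. A limma fit with each gene's own variance was added, and adjusted p-values against a reference gene come from it. In all, 12 pairs were compared by exact sign-flip permutation. Groups are described by counts and medians. The fits were tested on simulated data. Positions, lengths and sequences came from GENCODE M21, which matched all 36 members. Every member is named. Of the other adherens junction genes, the 4 highest and 3 lowest are named, and Ptprb and Arvcf, chosen after their values were seen. Of the endothelial markers the highest and lowest are named, and of the neuron, oligodendrocyte and choroid plexus markers the highest. Members, lists and pairs were chosen with earlier results of these data known. Alternatives covered pseudocount, filter, scaling, variance model and each library left out, and, chosen after seeing the data, transcript length and own variances. Figures were drawn with matplotlib 3.10.9.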

Additional observations from a re-analysis of the deposited data

Results flagged for a closer look

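Cdh2 and Cdh24 each had 1 library far from the other 3 among the 34 members checked, where chance flags about 1 group in 20. Cdh2 measured 13.8 FPKM in replicate 3, and its gap to the next library was 0.850 of the range of all 4, above Dixon's 95% critical value for 4 samples. Cdh24 measured 1.24 FPKM in replicate 1, with a gap of 0.929 of the range.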

How the results depend on the processing

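The counts of members above 1 FPKM (22 to 24), above Cdh5 (22 to 24) and above Pecam1 (12 to 13) held under all alternatives run. Rescaling each library to a sum of 1000000 shifted the median log2 value of all genes by 0.74 and left 1 member below 1 FPKM in place of 5, since Ctnna3, Cdh3, Cdh26 and Cdh1 no longer passed. It also turned 5 differences from 1 FPKM that had not passed: Nectin1 to 0.58, Cdh15 to 0.56, Cdh5 to 0.50, Cdh18 to 0.26 and Cdh24 to 0.077. Members below Cdh5, 3 in the main result, numbered 1 with a pseudocount of 0.01, 5 with no filter and 5 without the trend, and 1 to 3 with single libraries left out (1 without replicate 4). With no filter, Cdh16 and Cdh17, listed at 0, entered the test. The cause of the other changes was not tested. With single libraries left out, members below 1 FPKM numbered 5 to 7 and members below Pecam1 14 to 15. In the same runs differences that had not passed changed sign for Nectin1 (-0.18 to 0.088 from 1 FPKM, -0.12 to 0.21 from Cdh5), Cdh15 (-0.22 to 0.037 and -0.16 to 0.27) and Ctnnd1 (-0.17 to 0.026 from Pecam1), and for the pair Ctnna2 minus Ctnna1 (-0.25 to 0.018). Adjusting for transcript length turned Nectin1 to 0.21 from 1 FPKM, Cdh15 to -0.040 from Cdh5 and Ctnnd1 to 0.19 from Pecam1. It also raised Nectin3 to 0.65 above Pecam1, a difference that passed in the moderated test. In that test Cdh23 (-0.35 from Cdh5) and Cdh6 (-0.18 from Pecam1) no longer passed after the length adjustment. Ctnna3 (-0.40 from Cdh5) and Nectin2 (-0.45 from Pecam1) passed only after it. The other 11 pairs kept their direction in all alternatives run. Of 1197 single differences recomputed, 1133 kept their direction and their side of the threshold. Without read depth, values under 1 FPKM cannot be given a counting error. Genes were compared within libraries, but no pairing of samples was possible because the series has 1 group.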
